A study of Mus musculus with 4 samples.

Results

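The spectrin-actin membrane skeleton of lens fibre cells was described through 9 genes, Sptan1, Sptbn1, Tmod1, Tmod3, Ank2, Ank3, Add1, Epb41 and Epb41l2. Every probe set whose platform annotation names exactly 1 of these genes was taken, which gave 34 of the 45037 non-control probe sets and 8 of the 9 genes, while no probe set annotated to Epb41 alone was found and that gene was not analysed here. RNA came from whole lenses of newborn mice (postnatal day 0.5), with 2 arrays of Hsf4 knockout lenses and 2 arrays of wild-type lenses. Hsf4 encodes a heat shock transcription factor of the lens, and the arrays set lenses that lack it against lenses that have it. All 4 samples are labelled as males on the 129S3 background, and the knockout allele is not described further in the sources used here. The labels do not say whether the 2 samples of a group are separate animals, and each p-value therefore reflects the array-to-array spread alone, part of which may be technical.

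In a fibre cell the inner face of the plasma membrane is lined by a network of spectrin tetramers, built from an alpha and a beta chain, that cross-links short actin filaments. Tropomodulins cap the slow-growing ends of those filaments, adducins and proteins of the Epb41 family strengthen the junction of spectrin with actin, and ankyrins tie spectrin to membrane proteins. In the lens this network is known for keeping fibre cells in their regular hexagonal packing.

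The deposited median intensity was 18.5 and 6.58 on knockout arrays 1 and 2, against 21.4 and 10.5 on wild-type arrays 1 and 2, so the arrays were brought to one distribution before any comparison. Levels below are normalized intensities, and a log2 change is the knockout mean less the wild-type mean of log2(intensity + 16), a scale that understates the change of dim probe sets. The probe set named for Hsf4 measured 1212 and 413 on the knockout arrays, against 505 and 138 on the wild-type arrays, and since its position with regard to the deletion is unknown here, it checks nothing about the labels. Xist probe sets measured 34.0 to 260 on knockout array 1 and 1.41 to 13.7 on knockout array 2, against 48.2 to 605 on wild-type array 1 and 0.75 to 58.0 on wild-type array 2. These values differ between the numbers despite the common male label. The 3' to 5' ratio of the actin control was 1.53 and 1.89 on knockout arrays 1 and 2, against 1.67 and 1.51 on the wild-type arrays. The summed intensity of 11 lens fibre markers was 43557 and 45348 in knockout, against 45442 and 43262 in wild type, a sum that does not describe each gene. Bfsp1, a beaded filament protein, measured 2186 and 2060 in knockout, against 5220 and 3785 in wild type (log2 -1.06, unadjusted p = 0.000698, limma adjusted p = 0.542). Dnase2b, the nuclease of fibre cell denucleation, measured 143 and 262 in knockout, against 402 and 579 in wild type (log2 -1.25, limma adjusted p = 1). Mip, another of the fibre markers, measured 4896 and 4746 in knockout, against 4228 and 3670 in wild type (log2 0.29). Both of its knockout values were above both wild-type values. Bfsp2, the partner of Bfsp1, ranged most, with 60.1 and 2907 in knockout, against 180 and 268 in wild type. Of the 11 fibre markers tested, 5 had a log2 change above 0 and 6 below. Their median was -0.01, beside -0.01 over the brightest probe sets of all tested genes.

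Of the 34 member probe sets, 26 from 8 genes reached the intensity filter and were tested, and 0 passed an adjusted p of 0.05 in limma with Benjamini-Hochberg adjustment over all 22519 probe sets tested, of which 0.0178% passed. At an unadjusted p of 0.05 the count was also 0 of 26, where 2.33% of all tested probe sets were under it. The 2 groups did not overlap for 7 of the 26, 3 higher and 4 lower in knockout, while over all tested probe sets 27.0% did not overlap, 12.6% higher and 14.4% lower. Within both array numbers, 9 of the 26 were higher and 6 lower in knockout, beside 25.9% and 27.4% of all tested probe sets. These shares lie near those of the whole array. The median log2 change was 0.00 over the 26 probe sets and 0.01 over the brightest probe set of each gene, beside -0.01 over all tested probe sets. In values as deposited and after median centring, the median of all tested probe sets was itself -0.42 and -0.25. Relative to that shift the members' median was -0.10, with 8 of the 26 above it. Median centring only subtracts a constant from each array, so both settings give this 1 result. After trimmed-mean scaling the members' median was -0.03 relative to all tested probe sets, with 12 of the 26 above it. The 95% intervals of the 26 log2 changes had a median half-width of 0.71. The other 8 probe sets, of Tmod3, Ank2, Ank3 and Epb41l2, stayed below the filter, and none of them exceeded an intensity of 18.4 on any array.

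**Figure D1:**
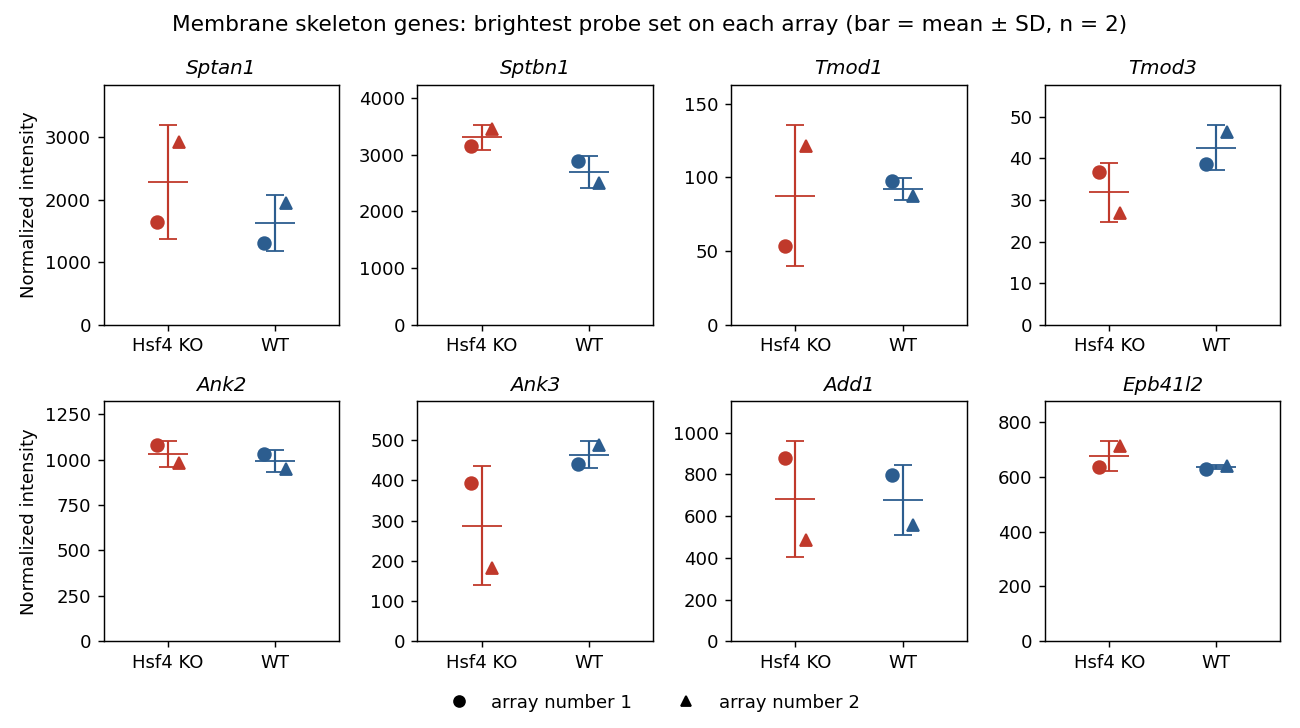
Normalized intensity (linear axis from 0) of the brightest probe set of each gene on every array, Hsf4 knockout (KO) left of wild type (WT), with circles for array number 1, triangles for number 2 and bars for the mean ± SD (n = 2). The knockout values of Sptbn1 lie above both wild-type values and those of Ank3 and Tmod3 below, while the groups overlap for the other 5 genes.

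The alpha chain gene Sptan1, which encodes non-erythroid alpha spectrin, had higher values in knockout within both numbers on both of its probe sets. Probe set 1427888_a_at measured 1639 and 2928 on knockout arrays 1 and 2, against 1312 and 1947 on wild-type arrays 1 and 2. The number 2 array was the brighter one in each group, and the groups overlap. The log2 change was 0.45 (95% interval -0.25 to 1.15, limma adjusted p = 1). It was 0.32 within number 1 and 0.58 within number 2. Without knockout array 2 the log2 change was 0.04, and without knockout array 1 it was 0.87. Probe set 1427889_at measured 1890 and 2254 in knockout, against 1626 and 1620 in wild type. Both knockout values were above both wild-type values here, and the wild-type values were nearly equal. The log2 change was 0.34 (95% interval -0.14 to 0.83, limma adjusted p = 1), and 0.21 without knockout array 2. Before any normalization between arrays both changes were below 0, at -0.06 and -0.22, where all tested probe sets shifted by -0.42. Relative to that shift they were 0.36 and 0.20.

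The beta chain gene Sptbn1, which encodes the partner of alpha spectrin in most non-erythroid cells, was read by 6 tested probe sets that did not move together. The brightest, 1452143_at, measured 3156 and 3464 in knockout, against 2893 and 2495 in wild type. Both knockout arrays were above both wild-type arrays, by a log2 change of 0.30 (95% interval -0.14 to 0.74, limma adjusted p = 1), or 0.18 without wild-type array 2. Probe set 1419256_at measured 840 and 529 in knockout, against 502 and 433 in wild type, which again do not overlap. Its log2 change was 0.50 (95% interval -0.18 to 1.18, limma adjusted p = 1). It was 0.72 within number 1 and 0.28 within number 2. Without knockout array 1 it was 0.17, and without knockout array 2 it was 0.83. As deposited, these 2 probe sets had -0.12 and -0.12, or 0.31 and 0.30 relative to all tested probe sets.

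The remaining 4 probe sets of Sptbn1 overlapped between the groups. Probe set 1419255_at measured 97.8 and 377 in knockout, against 124 and 245 in wild type. Here the number 2 arrays were far brighter than the number 1 arrays in both groups. Its log2 change of 0.14 had the widest interval of all members, -1.08 to 1.37, and was -0.30 within number 1 and 0.59 within number 2. Probe set 1444089_at had a log2 change of -0.06, with 116 and 196 in knockout, against 148 and 170 in wild type. The dim probe sets 1451830_a_at and 1441507_at had -0.34 and -0.44. The first measured 39.1 and 32.1 in knockout, against 35.4 and 66.5 in wild type, and the second 18.3 and 7.65, against 31.3 and 15.7. Which transcripts of Sptbn1 each probe set reads was not tested. The 6 log2 changes ran from -0.44 to 0.50, so no single direction describes Sptbn1 on these arrays.

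**Figure D2:**
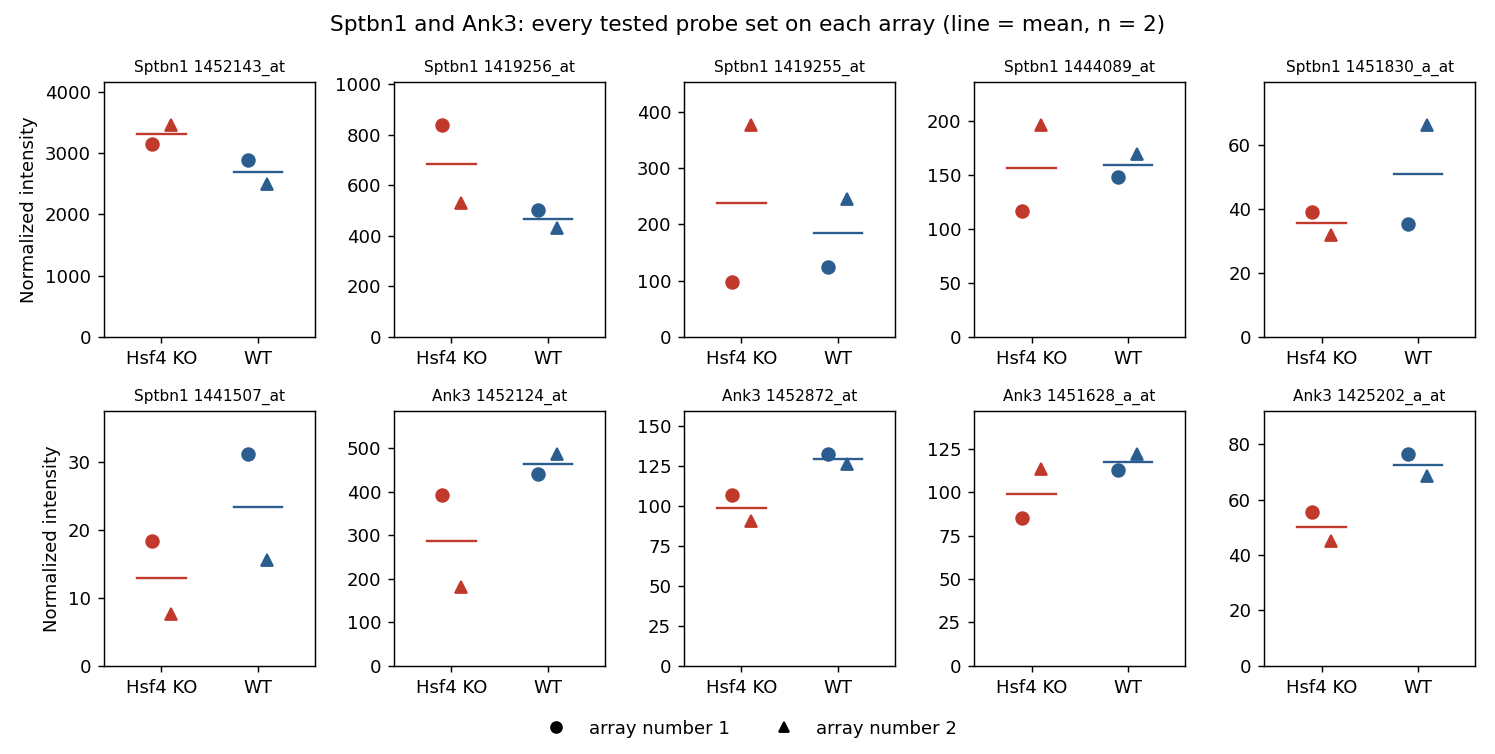
Normalized intensity (linear axis from 0) of the 6 tested probe sets of Sptbn1 and the 4 of Ank3 on every array, Hsf4 knockout (KO) left of wild type (WT), with circles for array number 1, triangles for number 2 and lines for group means (n = 2). The Sptbn1 probe sets differ in direction, with log2 changes from -0.44 to 0.50, while the knockout mean lies below the wild-type mean on all 4 Ank3 probe sets.

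The sequence upstream of annotated starts of the members was examined because heat shock factors bind arrays of inverted GAA units. The bases before each annotated start (250 bases, RefSeq, build GRCm38.p6) were available in 13 windows for 7 of the 9 genes, with several windows for Ank2, Epb41 and Sptbn1. No window was in the table for Ank3 and Tmod3. The 8-letter pairs GAANNTTC and TTCNNGAA, each its own reverse complement and so the same on both strands, were searched without regard to overlap. One or the other was present in 1 of the 13 windows, beside 12.8% of all 32851 windows of that length. The alpha and beta spectrin windows held neither pair. Both Sptbn1 windows lie inside the annotated span of that gene (chr11:30099395-30268384, minus strand). The sequence before the outermost 5' end of Sptbn1 was therefore not among the windows searched. The alpha window, at chr2:29965310-29965559 on the plus strand, and the beta window with more CpG dinucleotides of the 2 available, at chr11:30198258-30198507 on the minus strand, are shown with these dinucleotides in capitals. They held 31 and 20 of these, the other Sptbn1 window held 2, and the median of all windows was 6. The 1 match lay upstream of an annotated start of Ank2, at chr3:126943387-126943636 on the minus strand, and began 141 bases before it. That start is an internal one, within the annotated Ank2 span of chr3:126921607-127500347. The Ank2 window nearest the 5' end of the span, at chr3:127499116-127499365, held neither pair. In the window with the match, capitals mark the match. A match is a description of letters and not a binding site.
Sptan1: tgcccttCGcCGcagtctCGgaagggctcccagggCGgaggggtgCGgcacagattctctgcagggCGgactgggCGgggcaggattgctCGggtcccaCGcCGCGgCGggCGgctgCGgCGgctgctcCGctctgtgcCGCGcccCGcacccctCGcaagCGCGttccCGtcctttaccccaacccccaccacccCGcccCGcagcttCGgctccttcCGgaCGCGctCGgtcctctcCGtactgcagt
Sptbn1: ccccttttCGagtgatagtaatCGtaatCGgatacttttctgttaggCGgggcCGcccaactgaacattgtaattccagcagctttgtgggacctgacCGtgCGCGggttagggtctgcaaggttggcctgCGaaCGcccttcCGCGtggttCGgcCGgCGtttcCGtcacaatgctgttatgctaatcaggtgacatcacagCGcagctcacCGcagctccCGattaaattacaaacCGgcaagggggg
Ank2: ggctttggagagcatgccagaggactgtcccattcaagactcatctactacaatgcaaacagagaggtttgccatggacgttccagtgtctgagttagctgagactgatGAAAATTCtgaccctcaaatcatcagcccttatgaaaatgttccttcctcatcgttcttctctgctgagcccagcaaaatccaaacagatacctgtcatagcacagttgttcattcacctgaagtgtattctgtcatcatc

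Tropomodulins cap the slow-growing filament ends and bind tropomyosin. Tmod1, the tropomodulin of lens fibre cells, erythrocytes and striated muscle, was read by 1 probe set, which measured 53.6 and 122 in knockout, against 97.6 and 87.1 in wild type. The knockout arrays lay on either side of the wild-type arrays. The log2 change was -0.15 (95% interval -0.99 to 0.70, limma adjusted p = 1). It was -0.71 within number 1 and 0.42 within number 2. The striated muscle markers, all 10 of them tested, were lower in knockout within both numbers, with summed intensities of 135 and 140 in knockout, against 2733 and 1407 in wild type. Among them Actc1, cardiac alpha-actin, measured 7.84 and 2.18 in knockout, against 443 and 218 in wild type (log2 -3.98, limma adjusted p = 0.0201). Myl1, a fast myosin light chain, measured 8.96 and 16.5 in knockout, against 489 and 255 in wild type (log2 -3.70, limma adjusted p = 0.0201). Whether this muscle RNA came from the lens or from other tissue taken with it was not tested. In whole lenses fewer cells of a type and less RNA per cell cannot be told apart either. The part of muscle RNA in the Tmod1 values was not tested.

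Tmod3, the widely expressed tropomodulin, was dim throughout. Its brightest probe set, 1423088_at, measured 36.8 and 26.8 in knockout, against 38.7 and 46.4 in wild type. Both knockout values were below both wild-type values, and the log2 change was -0.30 (95% interval -1.00 to 0.40, limma adjusted p = 1). The lower value came mostly from number 2, with -0.54 there and -0.05 within number 1, and it was -0.16 without knockout array 2. The other tested probe sets, 1423089_at and 1438556_a_at, had log2 changes of -0.25 and -0.36, overlapped between groups, and were at 0.30 and 0.01 within number 1. Their knockout array 2 values were 7.92 and 8.55, the lowest of the 4 arrays on each.

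Ankyrins link spectrin to membrane proteins, and the pair measured here differed in pattern. Ank2, which encodes ankyrin-B, was read at 1079 and 980 in knockout by probe set 1434264_at, against 1032 and 947 in wild type. All 4 values were close to each other. The log2 change was 0.06 (95% interval -0.48 to 0.59, limma adjusted p = 1), 0.06 within number 1 and 0.05 within number 2. Probe set 1434265_s_at, whose suffix marks probes shared between transcripts, measured 855 and 984 in knockout, against 940 and 562 in wild type, and its log2 change of 0.33 came from wild-type array 2, the lowest value of the 4. The dim probe set 1459317_at had 0.36, from 31.8 on knockout array 2 beside 12.8 on knockout array 1 and 12.1 and 13.7 in wild type.

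Ank3, which encodes ankyrin-G, an ankyrin of lateral membranes in epithelia and of the axon initial segment in neurons, was lower in knockout on all 4 of its tested probe sets and within both numbers on each. The brightest, 1452124_at, measured 393 and 182 in knockout, against 440 and 487 in wild type. Knockout array 2 was far below the other 3 arrays. The log2 change was -0.75 (95% interval -1.58 to 0.07, unadjusted p = 0.0700, limma adjusted p = 1), the lowest of all members. It was -0.16 within number 1 and -1.34 within number 2, while leaving out knockout array 2 gave -0.23 and leaving out knockout array 1 gave -1.27.

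The 3 dimmer Ank3 probe sets had smaller changes in the same direction. Probe set 1452872_at measured 107 and 90.6 in knockout, against 133 and 126 in wild type, with a log2 change of -0.34 (95% interval -1.02 to 0.33). Probe set 1425202_a_at measured 55.4 and 45.1 in knockout, against 76.5 and 68.4 in wild type, with a log2 change of -0.42 (95% interval -1.10 to 0.26). On both of these the groups do not overlap, and without knockout array 2 the changes were -0.25 and -0.32. Probe set 1451628_a_at measured 85.0 and 113 in knockout, against 113 and 122 in wild type, and its groups overlap by a narrow margin. Its log2 change was -0.22 (95% interval -0.92 to 0.47), with -0.41 when knockout array 2 was omitted and -0.05 when knockout array 1 was. Relative to the median of all tested probe sets, the 4 changes were -0.91, -0.40, -0.32 and -0.36 in values as deposited, in the order brightest, 1452872_at, 1451628_a_at and 1425202_a_at. All 4 probe sets read 1 gene on the same arrays and are not independent measurements.

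Markers of neurons and neural retina were also lower in knockout, beside Ank3. Of 11 tested, 10 had a log2 change below 0 and 7 were lower within both numbers, with 0 past the adjusted threshold and 1 at an unadjusted p under 0.05 in limma. Over all 11595 tested genes, 5959 were below 0, 3191 were lower within both numbers and 269 were at an unadjusted p under 0.05 in limma. The summed intensity of the 11 markers was 2659 and 1946 in knockout, against 2989 and 3494 in wild type. Their median log2 change was -0.18 within number 1 and -0.74 within number 2. Snap25, a synaptic fusion protein, measured 271 and 255 in knockout, against 410 and 437 in wild type (log2 -0.65). Neurod4, a transcription factor of retinal neurons, measured 445 and 103 in knockout, against 413 and 513 in wild type, so that knockout array 2 was again the low one. Rcvrn, recoverin of photoreceptors, was close to background at 23.5 and 1.54 in knockout, against 33.5 and 29.7 in wild type. The part of neural RNA in the Ank3 values was not tested.

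**Figure D3:**
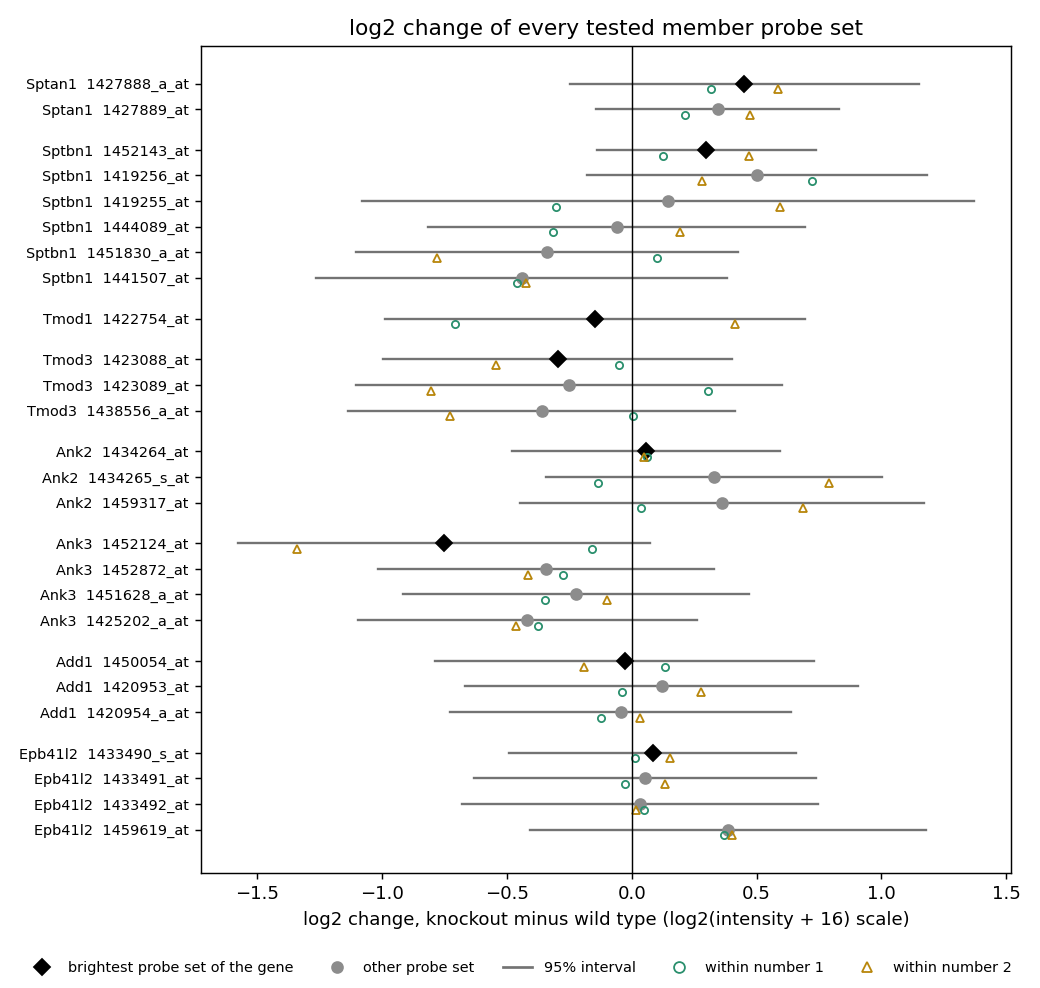
The log2 change (knockout less wild type, of log2(intensity + 16)) of the 26 tested member probe sets with limma's 95% intervals, diamonds for the brightest probe set of a gene, grey circles for the others, and open symbols below each for the change within array number 1 (circle) and number 2 (triangle). Every interval crosses 0, and only Ank3 among genes with more than 1 tested probe set has all its values within both numbers below 0.

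Proteins at the spectrin-actin junction were read by 7 tested probe sets, all with overlapping groups. Add1, alpha-adducin, which caps fast-growing filament ends and recruits spectrin to them, measured 876 and 486 in knockout on probe set 1450054_at, against 797 and 557 in wild type. The number 1 arrays were brighter in both groups, and the log2 change was -0.03 (95% interval -0.79 to 0.73, limma adjusted p = 1). Probe set 1420953_at measured 317 and 229 in knockout, against 326 and 186 in wild type, a log2 change of 0.12. Probe set 1420954_a_at measured 98.2 and 89.4 in knockout, against 108 and 87.1 in wild type, a log2 change of -0.05. The annotation ties all 3 to the same sequence record.

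Epb41l2, a relative of the erythrocyte membrane protein Epb41 that is found in many tissues, measured 636 and 714 in knockout on probe set 1433490_s_at, against 630 and 640 in wild type. The suffix of this probe set also marks probes shared between transcripts. The log2 change was 0.08 (95% interval -0.49 to 0.66, limma adjusted p = 1). It was 0.01 within number 1 and 0.15 within number 2. Probe sets 1433491_at and 1433492_at had log2 changes of 0.05 and 0.03. The dim 1459619_at measured 32.5 and 56.7 in knockout, against 21.5 and 39.0 in wild type, a log2 change of 0.39, with 0.37 and 0.40 within the numbers. It depended on single arrays. Leaving out knockout array 2 or wild-type array 1 gave 0.10 and 0.11, whereas omitting knockout array 1 or wild-type array 2 gave 0.63 and 0.69. As deposited, the 3 brighter probe sets had log2 changes from -0.54 to -0.49, close to the shift of -0.42 over all tested probe sets. For Ank2, Add1 and Epb41l2 the lack of a call does not show that these RNAs were equal in both groups.

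Related genes were read from 4 further lists, each gene by its brightest tested probe set, and 0 of the 37 genes tested passed the adjusted threshold, with 3 at an unadjusted p under 0.05 in limma. Over all 11595 tested genes, read in the same way, 3 passed and 269 were at an unadjusted p under 0.05 in limma. Among the other spectrins, ankyrins, adducins and Epb41 relatives, 11 of 16 listed genes were tested, 7 with a log2 change above 0 and 4 below, with a median of 0.18. Epb41l4a, a member of the same protein superfamily, measured 410 and 502 in knockout, against 224 and 292 in wild type. Both knockout values were above both wild-type values (log2 0.79, SE 0.30, unadjusted p = 0.0249, limma adjusted p = 1), with 0.83 and 0.75 within the numbers. Dmtn, dematin, an actin-bundling protein of the erythrocyte skeleton, measured 303 and 138 in knockout, against 147 and 101 in wild type (log2 0.68). Sptb, erythroid beta spectrin, measured 202 and 217 in knockout, against 191 and 103 in wild type (log2 0.52), while its dimmer probe set had -0.05. Erythroid markers, of which 4 of 10 were tested, had summed intensities over 7 genes of 145 and 555 in knockout, against 106 and 169 in wild type. Hbb-b2, a beta-globin gene, measured 35.1 and 153 in knockout, against 22.3 and 34.8 in wild type. The part of erythroid RNA in the Dmtn and Sptb values was not tested.

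Of the actin, tropomyosin and filament capping genes, 10 of 12 listed were tested, 4 above 0 and 6 below. Their log2 changes ran from -0.36 to 0.20 with a median of -0.04, and the median half-width of their 95% intervals was 0.62. Actb and Actg1, the cytoplasmic actins, had -0.01 and -0.08 on their brightest probe sets. A dimmer probe set of Actb had 1.46, with overlapping groups. Tpm4, a cytoskeletal tropomyosin, measured 385 and 454 in knockout, against 551 and 534 in wild type (log2 -0.36). Capza2 and Capzb, subunits of the protein that caps fast-growing ends, had 0.20 and 0.17, while the dimmer probe set of Capza2 had -0.18. Tpm1 and Tpm2, genes that also make muscle tropomyosins, had -0.07 and 0.03 on their brightest probe sets. Dimmer probe sets had -0.79 and -0.51 for Tpm1, and -0.33 and -0.90 for Tpm2.

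Among membrane proteins that bind the skeleton, 11 of 13 listed genes were tested, 4 above 0 and 7 below, with a median of -0.14. Chl1, a neural cell adhesion molecule that binds ankyrin, measured 25.8 and 19.9 in knockout, against 43.1 and 75.9 in wild type (log2 -0.93, SE 0.34, unadjusted p = 0.0216, limma adjusted p = 1). Cadm1, a cell adhesion molecule, measured 940 and 1153 in knockout, against 1282 and 1209 in wild type (log2 -0.25), with its 3 brighter probe sets non-overlapping and lower. Nfasc, neurofascin, had a log2 change of 0.32 that came from wild-type array 2. All 5 genes of the ezrin, radixin, moesin and merlin list were tested, with 2 above 0 and 3 below. Nf2, merlin, measured 316 and 230 in knockout, against 178 and 78.5 in wild type (log2 1.07, SE 0.39, unadjusted p = 0.0215, limma adjusted p = 1), while its 3 dimmer probe sets had 0.07, 0.27 and -0.30. Msn, moesin, had -0.46, and 0.11 on its dimmer probe set. Rdx, radixin, had -0.21, with -0.82 and 0.15 on its dimmer ones.

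Over the brightest probe sets of all 11595 tested genes the median log2 change was -0.01, beside which the medians of these lists can be read. Of these 11595 genes, 5959 were below 0 and 269 were at an unadjusted p under 0.05 in limma. Lens epithelium markers, all 8 of them tested, had a median of -0.01 and summed intensities of 5847 and 6431 in knockout, against 6073 and 5850 in wild type. Fibroblast and pericyte markers had a median of -1.33 over 9 genes, with 8 below 0, 0 past the adjusted threshold and 6 at an unadjusted p under 0.05 in limma. Their summed intensities were 1478 and 1070 in knockout, against 1962 and 2406 in wild type. Col1a1 and Col3a1, fibrillar collagens, had -1.84 and -1.73. The part of fibroblast RNA in the levels of the members and of Tpm4 was not tested.

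**Figure D4:**
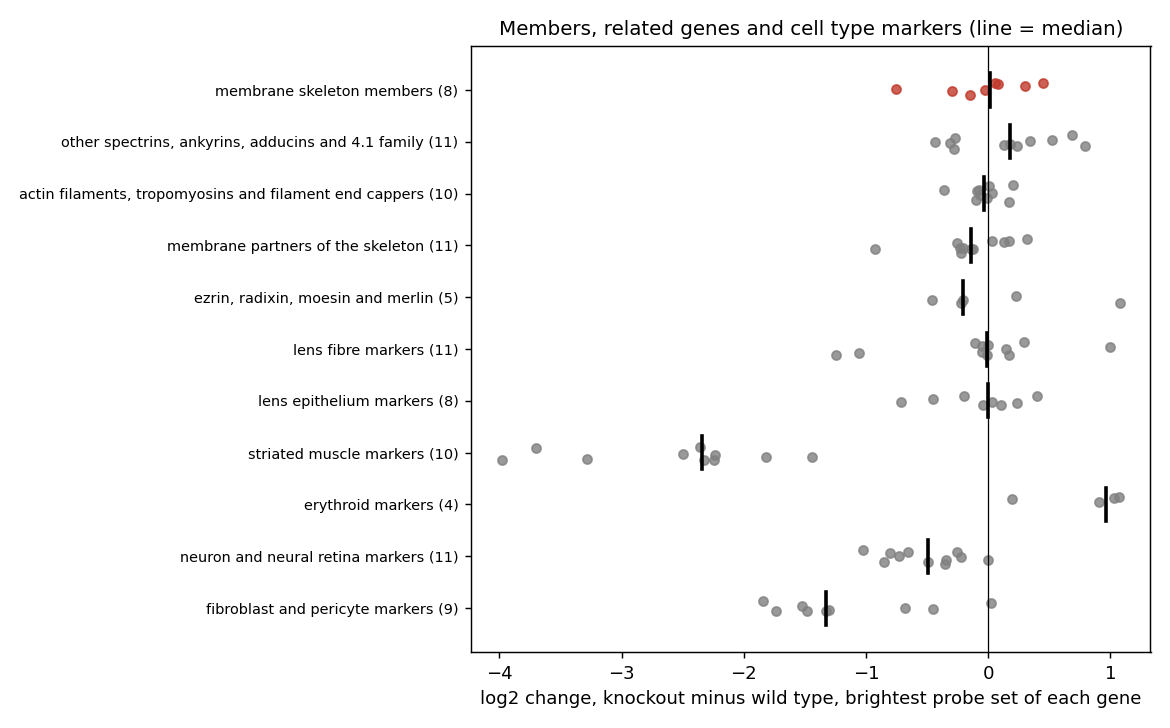
The log2 change (knockout less wild type) of the brightest tested probe set of each gene, 1 point per gene, for the 8 membrane skeleton members, 4 lists of related genes and 6 lists of cell type markers, with a line at each list's median and the number of genes in brackets. The members' median is 0.01, whereas the striated muscle, fibroblast and pericyte, and neuron lists lie below 0 at -2.34, -1.33 and -0.49. The erythroid median, from the 4 of 10 listed genes that reached the filter, is 0.97, with 0.32 within number 1 and 1.45 within number 2. The filter uses the mean of the 4 arrays, so a gene bright on knockout array 2 alone could enter. Hba-a2, among the 4, measured 11.4 and 103 in knockout, against 17.7 and 7.18 in wild type. The erythroid median therefore does not describe the listed genes that were not tested.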

How the data were processed

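RNA of 4 newborn mouse lens samples was hybridised to Affymetrix mouse arrays, 1 array per sample, after column purification and biotin labelling per the labels' protocols. The authors deposited 1 linear intensity per probe set and array, which was not normalized between arrays, and their summarising software is not given in these sources. Quantile normalization of each deposited intensity was done in R 4.3.3 (limma 3.58.1), then 16 was added and log2 was taken. After that step 64 control probe sets were removed. Probe sets were tested where their mean log2 value reached the median, 4.86, or an intensity of about 13.0, which left 22519. Groups were compared with limma's moderated test with a trend of variance on intensity, without a block, and adjusted over all tested probe sets by the Benjamini-Hochberg method. The number of arrays limits the precision. The procedure was also run on simulated data with independent noise on each array. Those data held no shared deviation of same-numbered arrays and no difference in scale. They therefore do not show how the procedure behaves under either.

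A gene with several probe sets is led by the one with the highest mean, and the others are given beside it. Named genes of other lists are up to 4 past the threshold, otherwise the 3 with the lowest p. Actb, Actg1, Tpm1, Tpm2, Bfsp2 and the dimmer probe sets of related genes were chosen after their values were seen. Not every gene the rule gives for the marker lists is printed. The members and lists were chosen with earlier results of these data known. Both groups carry the numbers 1 and 2 in their titles, with no word on what a number stands for. They were not treated as pairs. Alternatives were values as deposited, median centring, trimmed-mean scaling, offsets of 1 and 64, all probe sets or those above the 70th percentile, no variance trend, the number as a block, 1 probe set a gene, and leaving out each array. Promoter windows came from RefSeq, build GRCm38.p6.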

Additional observations from a re-analysis of the deposited data

How the results depend on the processing

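Of 338 log2 changes of member probe sets under the alternatives, 297 kept their direction and stayed uncalled, 40 changed direction and 1 became a call. The other filters, the fit without a variance trend, the block and 1 probe set a gene leave each log2 change as it is. No direction could change under those settings, so their values in the 297 say nothing about its stability. With the array number as a replicate block, 1 member probe set passed, the brightest of Ank3 (log2 -0.75, adjusted p = 0.0229), along with 1 gene each of the spectrin relatives and of the ezrin list, and 317 probe sets in all. That fit leaves 1 residual degree of freedom. No other member call changed with the block. Deviations of same-numbered arrays from their group means correlated at 0.43 over the tested probe sets, which with 2 pairs does not settle a pairing. Over all tested probe sets the count of calls was 4, and 0 with values as deposited, 0 with no filter, 16 with median centring (3 higher and 13 lower, against 2 and 2 in the fit used), and 5 to 663 leaving out 1 array, with 663 without knockout array 1 and 95 without knockout array 2. The number of non-overlapping member probe sets was 7, and 1 as deposited, 2 with median centring and 3 with 1 probe set a gene, which tests fewer probe sets. It was 14 to 21 leaving out 1 array, where a lone array overlaps less easily. Over all tested probe sets the share was 27.0%, and 5.42% as deposited, 17.3% with median centring and 27.0% with 1 probe set a gene. Leaving out 1 array, that share was 59.9% to 73.3%, so the member counts followed a shift of the whole array.

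The median log2 change of all tested probe sets was -0.42 as deposited, -0.25 with median centring and 0.01 with trimmed-mean scaling. As deposited, directions reversed for Sptan1 (-0.062 and -0.22), Sptbn1 (-0.12, -0.12 and -0.46), Ank2 (-0.57 and -0.28), Add1 (-0.48) and Epb41l2 (-0.52, -0.54, -0.49 and -0.011). With median centring they reversed for Sptan1 1427889_at (-0.052), Sptbn1 1419255_at (-0.29), Ank2 (-0.39 and -0.10), Add1 (-0.30) and Epb41l2 (-0.35, -0.37 and -0.31). The members' median over probe sets was -0.52 as deposited, -0.35 with median centring and -0.085 to 0.012 leaving out 1 array. Over brightest probe sets it was -0.56, -0.38 and -0.11 to 0.094. List medians, as deposited and with median centring, were -0.34 and -0.17 for spectrin relatives, -0.54 and -0.37 for actin and its cappers, -0.75 and -0.58 for membrane partners and -0.68 and -0.51 for the ezrin list. The spectrin relatives had 0.20 with offset 1 and 0.13 with offset 64. Leaving out 1 array gave 0.061 to 0.25 for them, -0.12 to 0.060 for the actin list and -0.13 to 0.094 for membrane partners. Of 156 marker list values under alternatives, 49 moved by more than their spread or by over 1.5 times.

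Leaving out 1 array turned the direction of further member probe sets, whose log2 changes then ran from -0.26 to 0.50 (Add1 1420953_at), -0.18 to 0.088 (1420954_a_at) and -0.45 to 0.38 (1450054_at). They ran from -0.011 to 0.12 for Ank2 1434264_at, -0.035 to 0.69 for 1434265_s_at, -0.13 to 0.23 for Epb41l2 1433491_at and -0.16 to 0.22 for 1433492_at. For Sptbn1 they ran from -0.76 to 1.04 (1419255_at), -0.41 to 0.28 (1444089_at) and -0.65 to 0.00056 (1451830_a_at). For Tmod1 they ran from -0.66 to 0.34 and for Tmod3 1423089_at from -0.65 to 0.22. Without a reversal they ran from -0.78 to -0.13 for Sptbn1 1441507_at, -0.61 to -0.071 for Tmod3 1438556_a_at, 0.28 to 0.67 for Ank2 1459317_at and 0.0026 to 0.17 for Epb41l2 1433490_s_at. The cause of the reversals was not tested. No direction reversed for any tested Ank3 probe set.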
